A study of Mus musculus with 6 samples.

Results

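Cytoplasmic ribosomal protein genes were taken as every row whose symbol is Rpl or Rps followed by a number, with an optional a, x or y, an optional l and an optional last digit, together with Rpsa, Rplp0, Rplp1 and Rplp2. The rule found 89 of 48395 symbols, and neither pseudogene rows with a -ps ending nor the Rps6k kinases were taken. Of these, 79 are called main genes here (33 of the small subunit, 43 of the large subunit and 3 of the P stalk), and 10 are paralogs whose symbol ends in l or l1. RNA was sequenced from LSK cells, the Lin-, Sca-1+ and c-kit+ fraction of bone marrow in which blood stem cells and early progenitors are found. All donor marrow was Mx1Cre; Jak2V617F/+, so the vector group carries the activating Jak2 allele as well, and there was no group with unmutated Jak2. Donors had been primed with 5-fluorouracil, their marrow was transduced with lentivirus carrying vector alone or Hmga2, an architectural chromatin protein, and it was given to lethally irradiated C57BL/6 recipients. LSK cells were sorted 32 weeks after the transplant, and 3 biological replicates were labelled vector and 3 Hmga2.

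Mx1Cre acts in cells that respond to interferon, which includes blood cells but is not limited to stem cells. The labels name no sort for transduced cells, so LSK cells that carried no virus, or that descended from the recipient, may be among those sequenced. Hmga2 itself stood at a CPM (count scaled to the library's size) of 5.96, 5.04 and 7.03 with vector, against 2.63, 6.63 and 5.91 in libraries labelled Hmga2, so directions below are those of the labels. Total counts ranged from 24818011 to 35471806 per library. The sort markers were present: Kit was at 248 to 354 CPM in the vector libraries and 345 to 375 CPM in the libraries labelled Hmga2, and Ly6a, which encodes Sca-1, at 19.3 to 59.1 and 32.2 to 45.5 CPM. The summed level of Y-linked genes, on a log2 scale, was 2.95, 4.48 and 2.64 with vector. It was 7.59, 2.66 and 7.02 in libraries labelled Hmga2. Markers of other cells also differed between libraries. Plasma and B cell markers summed to 13797, 810 and 11788 CPM with vector, against 852, 4583 and 631 CPM in libraries labelled Hmga2, and the 12 granulocyte markers, all with a log2 fold change below 0, to 4438, 9416 and 5061 CPM against 4892, 3011 and 4149 CPM. Values of the ribosomal protein genes within immunoglobulin-rich and other libraries, and with a term for them in the fit, are given with the results, and the part of the granulocyte markers was not tested.

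Ribosomal proteins bind the ribosomal RNAs to form the small subunit, which reads the mRNA, and the large subunit, which joins the amino acids. The P stalk, built from Rplp0, Rplp1 and Rplp2, draws elongation factors to the large subunit. Most of these mRNAs begin with a run of pyrimidines, the TOP motif, through which mTOR signalling controls their translation, and blood formation is sensitive to the loss of single ribosomal proteins, as in Diamond-Blackfan anaemia. Several of the paralogs can stand in for the main gene in particular tissues: Rpl10l and Rpl39l in the testis, Rpl3l in muscle.

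The pairs below are shown because their paralogs were among those measured well in LSK cells and because they show how far reads can tell paralog from parent. Each line is coding bases 1 to 120 of the principal transcript in GENCODE M21 (GRCm38, the same build as mm10), and capitals mark the positions at which parent and paralog differ. Rpl36a lies at chrX:134585654-134588062 on the plus strand and Rpl36al at chr12:69182731-69184083 on the minus strand, and they differ at 18 of the 120 bases. Rps27 lies at chr3:90212522-90213651 on the minus strand and Rps27l at chr9:66946086-66949516 on the plus strand, and they differ at 28.
Rpl36a: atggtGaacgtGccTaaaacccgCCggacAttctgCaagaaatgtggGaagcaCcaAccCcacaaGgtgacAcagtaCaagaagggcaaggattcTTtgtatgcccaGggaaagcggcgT
Rpl36al: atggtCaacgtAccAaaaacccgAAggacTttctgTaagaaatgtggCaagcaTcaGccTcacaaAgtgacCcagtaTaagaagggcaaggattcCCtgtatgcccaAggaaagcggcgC
Rps27: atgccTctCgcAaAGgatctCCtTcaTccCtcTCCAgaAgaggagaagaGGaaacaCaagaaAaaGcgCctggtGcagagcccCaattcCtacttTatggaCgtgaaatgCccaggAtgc
Rps27l: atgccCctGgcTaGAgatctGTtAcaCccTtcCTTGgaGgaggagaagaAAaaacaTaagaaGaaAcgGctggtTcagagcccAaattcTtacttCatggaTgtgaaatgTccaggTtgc

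Over the whole coding sequence the identity to the parent was 87.7% for Rpl36al, 85.0% for Rpl39l, 84.7% for Rpl10l, 76.2% for Rps27l, 73.0% for Rpl3l, 66.9% for Rpl22l1 and 50.2% for Rpl7l1. None of the 50-base windows of these paralogs' transcripts was found unchanged in the parent transcript. In some other annotated gene, 63.3% of the windows of Rpl36al were found, 57.3% of Rpl22l1, 22.4% of Rps27l and 12.2% of Rpl7l1. For Rpl10l this was 7.6%, and for Rpl39l and Rpl3l 0%. The remaining paralogs, Rpl6l, Rps12l1 and Rps4l, are typed as processed pseudogenes by GENCODE, as are the main-list rows Rps3a2 and Rps3a3. All windows of Rps12l1 occur in Rps12, and 61.8% of those of Rpl6l in Rpl6, whereas none of Rps4l occurs in Rps4x. Main genes share sequence with other genes as well: the median main gene had 57.4% of its 50-base windows in some other annotated gene, from 0% to 98.6% in Rps27. The type of those other genes was not checked. How the counting shared such reads between genes was not given in the sources used here, so values of near-identical rows, Rps12l1 and Rps12 above all, are uncertain.

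The members took a similar share of all counts in both groups. They made up 7.29%, 7.94% and 8.63% of counts in vector replicates 1 to 3 and 7.35%, 8.99% and 7.25% in the libraries labelled Hmga2, each with a 95% Wilson interval at most 0.0221 percentage points wide, which covers counting error only. The means were 7.95% ± 0.670 and 7.86% ± 0.976 (SD, n = 3 each), and the ranges overlapped. The balance of the subunits was steadier than the share itself, with a ratio of small-subunit to large-subunit counts of 0.805 ± 0.00542 and 0.811 ± 0.00868. Paralogs made up 0.115% ± 0.0136 and 0.110% ± 0.0112 of counts. In bulk RNA, a change in the cells present and a change in RNA per cell cannot be told apart.

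**Figure D1:**
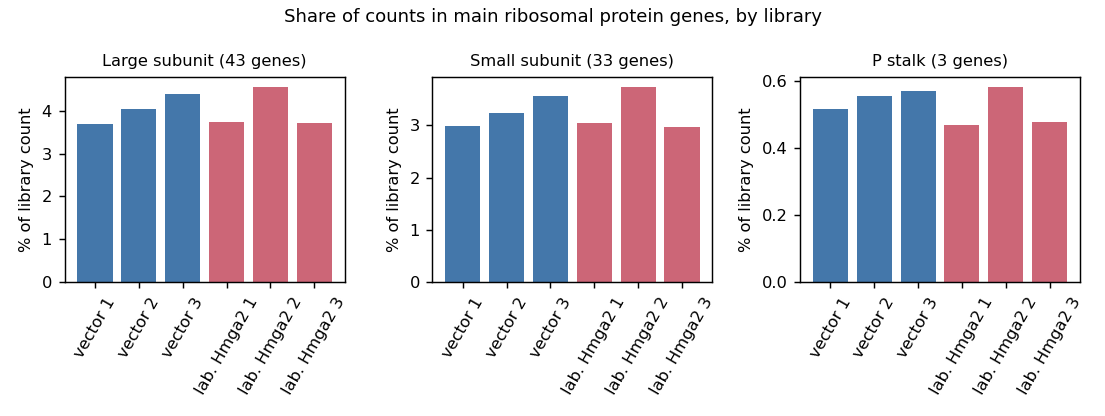
Percent of each library's count in the 43 large subunit, 33 small subunit and 3 P stalk genes (y axes start at 0 and differ in scale), by library, with vector libraries in blue and libraries labelled Hmga2 in red. In the large and small subunit panels vector 3 and Hmga2 2 are the tallest bars, and both groups hold low and high libraries.

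All 79 main genes and 7 of the 10 paralogs passed the count filter. Main genes had mean levels of 228 to 2983 CPM, with a median of 918. The highest were Rpl4, whose protein lines the exit tunnel of the large subunit, Rplp0 and the X-linked small subunit gene Rps4x, and the lowest of all members that passed were Rps4l, Rps27l and Rpl22l1. Levels per kilobase, used to compare genes, depend on the length chosen. Per kilobase of merged exons the median main gene was at 442 CPM and the median measured paralog at 111 CPM, 3.97 times lower. The ratio was 4.87 with the longest transcript as the length and 6.23 with the principal transcript, for which 4 of the 7 paralogs had a length. Per kilobase of merged exons, the highest measured paralogs were the processed pseudogenes Rps12l1 and Rpl6l, at 654 and 269 CPM. The lowest was Rps4l, also a processed pseudogene, at 4.28 CPM. The highest level per kilobase of merged exons was that of Rplp1, at 2825 CPM. Rplp1 was also the highest by longest transcript, but had rank 3 by principal transcript. Rpl10l and Rpl39l had no count in any library, where 3 counts would be 0.0846 to 0.121 CPM. Rpl3l had 2 to 7 counts in each library, and is not compared.

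No ribosomal protein gene was called between the groups. With edgeR's quasi-likelihood test and an adjusted p under 0.05, 0 of the 86 members were called, as were 0 of all 16739 genes tested (0%). At an unadjusted p under 0.05 the members again gave 0, against 935 genes or 5.59% of all tested, and DESeq2 called 0 members, against 71 of 16719 genes (0.425%). No member had groups that did not overlap, whereas 5.88% of all genes were lower and 5.28% higher in every library labelled Hmga2 than in every vector library. The smallest adjusted p of a main gene was 0.865 (edgeR). Among main genes the log2 fold changes, labelled Hmga2 minus vector, ran from -0.20 to 0.09 with a median of -0.03, against 0.00 for all genes, and their median standard error was 0.13. They were below 0 for 62 of 79 main genes (78.5%), against 49.6% of all genes.

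**Figure D2:**
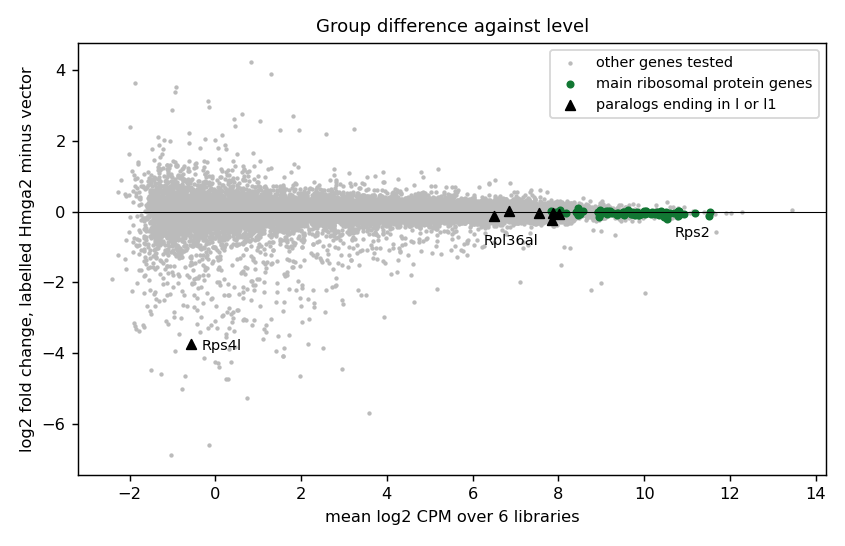
Log2 fold change (labelled Hmga2 minus vector) against the mean log2 CPM of the 6 libraries, for all 16739 genes tested (grey), the 79 main ribosomal protein genes (green) and the 7 measured paralogs (black triangles). Main genes lie at the high end of expression between -0.20 and 0.09, and Rps4l alone among the members lies far from 0.

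The P stalk genes had the lowest median of the 3 classes, -0.12, with all 3 below 0. Rplp0, the stalk's base, had 2838, 3145 and 3174 CPM with vector, against 2728, 3114 and 2556 CPM in libraries labelled Hmga2. Rplp1 was at 1335, 1474 and 1648 CPM, against 1142, 1584 and 1275 CPM. Rplp2 was at 887, 961 and 1082 CPM, against 822, 1054 and 861 CPM. For each of the 3, Hmga2 replicate 2 lay among the vector values and replicates 1 and 3 below the vector libraries. The log2 fold changes were -0.12 (SE 0.12) for Rplp0, -0.16 (SE 0.15) for Rplp1 and -0.10 (SE 0.13) for Rplp2, where SE is the standard error, and adjusted p was 0.894, 0.894 and 0.930 in edgeR. The 95% interval of Rplp0 ran from -0.41 to 0.16. Leaving out each library in turn gave values from -0.21 to -0.063 for Rplp0, -0.30 to -0.055 for Rplp1 and -0.22 to -0.012 for Rplp2, lowest for each without Hmga2 2. With the summed level of Y-linked genes as a term, Rplp1 stood at 0.023 and Rplp2 at 0.054.

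In the small subunit 22 of 33 genes were below 0, with a median of -0.03. Rps2, whose protein sits near the path by which mRNA enters the ribosome, had the smallest unadjusted p of the main genes (log2 fold change -0.20, SE 0.15). Its values were 1417, 1638 and 1762 CPM with vector, against 1172, 1615 and 1418 CPM in libraries labelled Hmga2, with only Hmga2 replicate 1 clearly below every vector library. Without Hmga2 1 the log2 fold change was -0.082, and without Hmga2 2 it was -0.31. Rpsa, also known as the laminin receptor, was at 1535, 1685 and 1864 CPM, against 1546, 1893 and 1477 CPM, a log2 fold change of -0.05 (SE 0.13). Here the highest and the lowest library were both labelled Hmga2. Rps7, which had the smallest unadjusted p of the small subunit genes above 0, was at 437, 455 and 582 CPM, against 497, 561 and 477 CPM. Rps3a3, Rps15a, Rps3a1 and Rps27 followed it, all with overlapping groups.

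In the large subunit 37 of 43 genes were below 0, with a median of -0.05. Rpl29 had the smallest unadjusted p there, at 523 ± 51.6 and 472 ± 60.4 CPM (SD, n = 3 each), and its log2 fold change was -0.15 (SE 0.12), or -0.067 without Hmga2 1 and -0.25 without Hmga2 2. Rpl34 had the highest log2 fold change of all main genes, 0.09 (SE 0.16), which was 0.0066 without vector 1, 0.014 without vector 3 and 0.28 without vector 2. It had 302, 428 and 302 CPM with vector, against 383, 393 and 323 CPM in libraries labelled Hmga2, so that vector 2 was its highest library and the other two vector libraries its lowest. The 4 X-linked main genes, Rpl10, Rpl36a, Rpl39 and Rps4x, had a median of -0.03.

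The main genes moved together from library to library, across both groups. The deviation of a gene in a library is its log2 CPM minus its mean over the 6 libraries. The median deviation of the 79 main genes was -0.14, 0.01 and 0.20 in vector replicates 1 to 3 and -0.10, 0.18 and -0.14 in the libraries labelled Hmga2. Vector 3 and Hmga2 2 were both above vector 1, Hmga2 1 and Hmga2 3 in 77 of the 79 genes, the exceptions being Rpl34 and Rpl4, and in 5 of the 7 measured paralogs. The highest library was vector 3 for 43 main genes and Hmga2 2 for 34. The ratio of the highest to the lowest library ran from 1.14 in Rpl4 to 1.57 in Rps12, with a median of 1.32. Rpl4 was at 2770, 3050 and 3152 CPM, against 3068, 3052 and 2804 CPM. Rps12 was at 282, 364 and 419 CPM, against 293, 444 and 306 CPM, with vector 3 and Hmga2 2 standing above the other libraries.

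**Figure D3:**
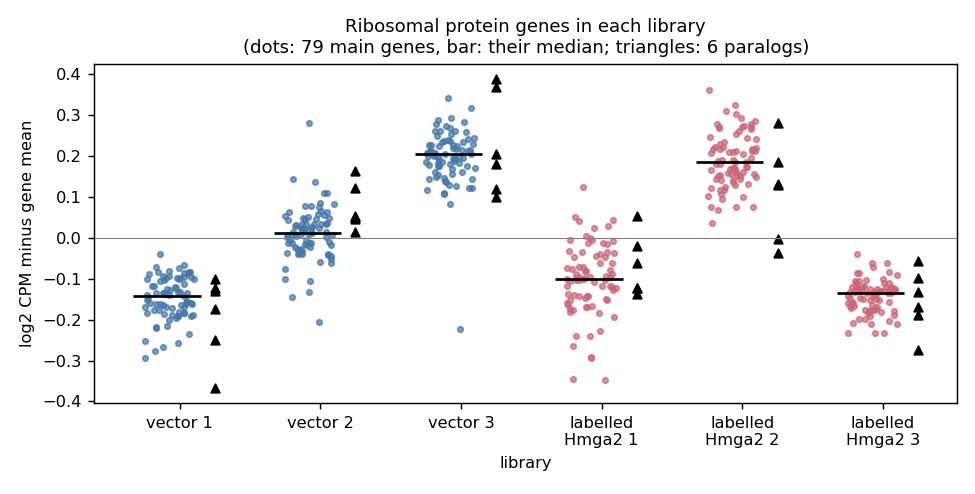
Log2 CPM minus the gene's mean over 6 libraries (y axis) in each library (x axis): dots are the 79 main genes, the bar is their median, and triangles are 6 paralogs (Rps4l, which is off this scale, is left out). Nearly all main genes are high in vector 3 and Hmga2 2, at medians of 0.20 and 0.18, and low in vector 1, Hmga2 1 and Hmga2 3, and the lone low dot in vector 3 is Rpl34.

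Other short genes moved between libraries in the same order. Main genes are short, and the 1117 other tested genes with transcripts of up to 600 bases had median deviations of -0.10, 0.03 and 0.18 in vector replicates 1 to 3 and -0.06, 0.09 and -0.09 in the libraries labelled Hmga2. The 3800 genes over 4000 bases went the other way, at 0.05, -0.02 and -0.15 and at 0.09, -0.04 and 0.07. The 28 main genes of up to 600 bases stood at -0.16, -0.01, 0.22, -0.13, 0.22 and -0.13, close to that order. Across the 79 main genes the log2 transcript length and the log2 range over libraries had a Pearson correlation of -0.40 and a Spearman correlation of -0.43, a description over genes that share the same 6 libraries. A trend on length was fitted in every library over 16115 genes, the 79 main genes among them, so part of their own shift may be removed with it. With this trend removed, the deviations of the main genes were -0.06, -0.02 and 0.05 and then -0.05, 0.11 and -0.07. Hmga2 2 was then the highest in place of vector 3. The median log2 fold change was then 0.02, with 30 of 79 main genes below 0.

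The sign of the group difference also turned with the libraries compared. Vector 1, vector 3 and Hmga2 2 were rich in immunoglobulin transcripts (Igha over 1000 CPM). Among those 3, the median log2 difference of the main genes, Hmga2 2 minus the mean of the vector pair, was 0.16 with 0 of 79 below 0. Among the others, Hmga2 1 and Hmga2 3 minus vector 2, it was -0.14 with 75 of 79 below 0. Each of these sets has a single library on one side, so neither was tested. With a term for immunoglobulin-rich libraries in the fit of all 6, the median was 0.02, and it was -0.04 with immunoglobulin genes left out. The median over main genes was 0.06 without vector 3 and -0.16 without Hmga2 2. With the summed level of Y-linked genes as a term of the fit it was 0.10, with 6 of 79 genes below 0. That level was highest in Hmga2 1 and Hmga2 3, so the term overlaps in part with the label.

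The 7 measured paralogs had a median log2 fold change of -0.07, and -0.06 without Rps4l. Rpl36al, an expressed copy of Rpl36a, had 216, 240 and 300 CPM with vector, against 213, 232 and 204 CPM in libraries labelled Hmga2. The groups overlapped, and vector 3 stood above all others. Its log2 fold change was -0.22 (SE 0.13, 95% interval -0.53 to 0.08, edgeR's adjusted p = 0.855), and -0.073 without vector 3. Rps27l, a known target of p53, was at 69.5, 97.4 and 117 CPM, against 81.5, 98.1 and 81.8 CPM, a log2 fold change of -0.12 (SE 0.19). Rpl22l1, which is known to rise when Rpl22 is lost, was at 102, 119 and 123 CPM, against 110, 130 and 107 CPM, a log2 fold change of 0.02 (SE 0.11).

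Dividing a paralog's count by its parent's removes what the pair shares in a library. Rpl36al stood at 37.5%, 39.9% and 42.7% of the Rpl36a count in the vector libraries and at 37.0%, 32.7% and 36.2% in the libraries labelled Hmga2. This was the one pair of 7 whose groups did not overlap, with a log2 difference of -0.18. An exact two-sided permutation test gave p = 0.1, the smallest that 3 libraries against 3 allow, and 0.7 after Benjamini-Hochberg adjustment over the 7 pairs. Rpl22l1 was at 20.0% ± 1.41 and 20.0% ± 0.379 of Rpl22, Rpl6l at 18.2% ± 0.196 and 18.2% ± 0.306 of Rpl6, and Rpl7l1 at 10.3% ± 0.163 and 10.7% ± 1.12 of Rpl7 (SD, n = 3 each). Rps27l was at 34.2%, 44.9% and 45.2% of Rps27 and at 38.6%, 35.9% and 39.6%, where vector 1 was the lowest library. Rps27 has 98.6% of its windows in some other annotated gene, so this ratio also depends on how shared reads were assigned. The row Rps27rt had means of 408 and 413 CPM, above those of Rps27 at 227 and 230 CPM. Rps12l1 was at 75.7% ± 4.34 and 73.7% ± 6.29 of Rps12, a ratio that rests on how reads common to both were assigned.

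**Figure D4:**
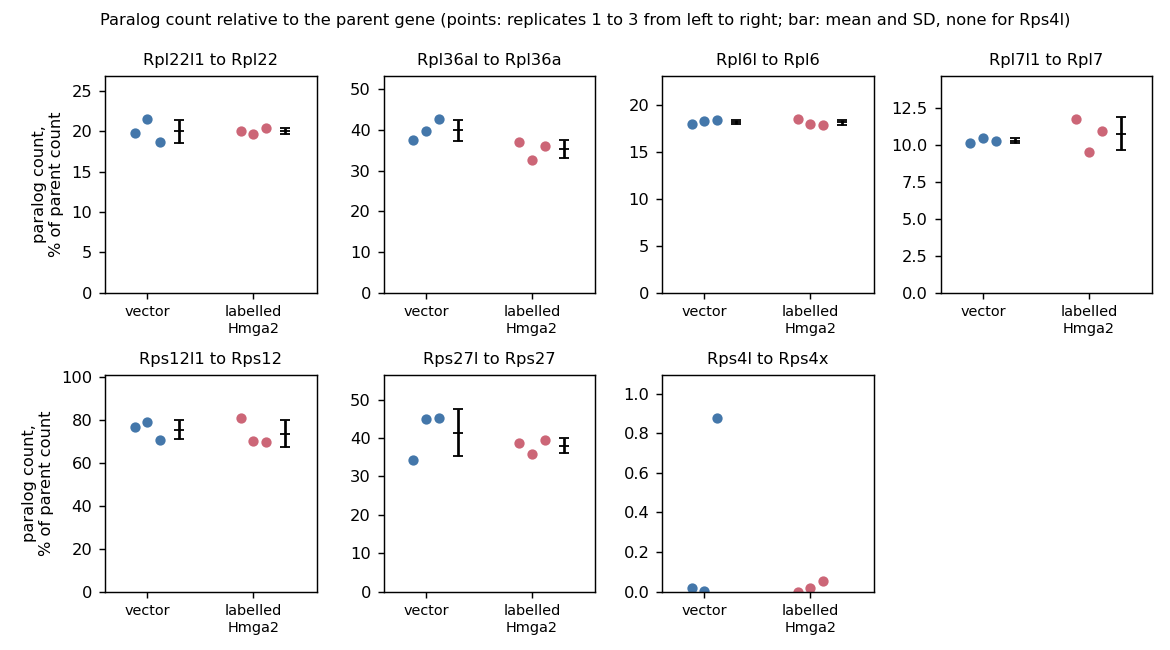
Count of each measured paralog as a percent of its parent's count (y axes start at 0 and differ in scale), with one point per library in blue for vector and red for labelled Hmga2, and the mean and SD beside them except for Rps4l. Only the Rpl36al panel has groups that do not overlap (37.5% to 42.7% against 32.7% to 37.0%), and the Rps4l panel is set by vector 3.

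Rps4l was detected almost entirely in a single library. It had 526 counts in vector 3, against 14 and 3 in vector replicates 1 and 2 and 0, 15 and 40 in the libraries labelled Hmga2, where the highest of the other 5 libraries was at 1.17 CPM. Its parent Rps4x varied little, at 2192, 2391 and 2515 CPM and at 2313, 2510 and 2130 CPM. The log2 fold change of Rps4l, -3.76 (SE 1.93, edgeR's adjusted p = 0.855), therefore rested on vector 3, and it was 0.95 without that library. None of its 50-base windows occurs in Rps4x, and 14.9% occur in some other annotated gene.

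Promoter sequences of RefSeq (GRCm38.p6, 250 bases before to 50 after the start) were matched for 57 of the 79 main genes and 7 of the 10 paralogs. A run of at least 8 pyrimidines beginning with C, on the gene's strand and within 25 bases of the annotated start, was present in 30 of 57 main genes (52.6%) and in 3 of 7 paralogs, against 19.4% of the tested genes with an entry and 17.7% of all 27025 promoters. Windows of 30 bases centred on the start are given for genes with such a run and for the Rpl36a pair, which had none. Capitals mark the part of the run inside the window.
Rps6, chr4:86857353-86857382, minus strand: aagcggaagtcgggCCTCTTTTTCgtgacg
Rpl35, chr2:39005117-39005146, minus strand: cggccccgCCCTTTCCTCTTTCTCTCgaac
Rps27, chr3:90213634-90213663, minus strand: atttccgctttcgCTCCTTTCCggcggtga
Rps27l, chr9:66946071-66946100, plus strand: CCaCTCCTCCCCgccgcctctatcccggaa
Rpl22l1, chr3:28805493-28805522, plus strand: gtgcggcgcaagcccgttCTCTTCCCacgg
Rpl36a, chrX:134585639-134585668, plus strand: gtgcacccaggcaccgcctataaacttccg
Rpl36al, chr12:69184053-69184082, minus strand: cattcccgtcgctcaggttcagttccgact

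The start is base 16 of each window: the run of Rps27 spans it, and the run of Rps27l ends before it. A second annotated start of Rps27l had no such run, and a gene with several starts was counted if any of them had one. Neither Rpl36a nor Rpl36al had a run within the 25 bases. Other short motifs were counted on both strands of the 300 bases. CTTCCG, the core of sites bound by ETS-family factors, whose pyrimidines can overlap the run, was in 40 of 57 main genes (70.2%) and in 3 of 7 paralogs, against 33.8% of the tested genes and 18.8% of all promoters. The TATA box letters TATAAA were in 10.5% of main genes, against 8.77% and 15.7%, and AAGATGGC, which resembles sites of the factor YY1, in 8.77%, against 5.14% and 3.19%. A match describes letters in this window and not a bound site.

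Genes that work with the ribosome are given for comparison. Of 19 translation partners (elongation factors and ribosome-associated proteins), 13 were below 0 with a median of -0.04 and 0 had an unadjusted p under 0.05. Against 5.59% of all genes tested, 1 of the 18 genes of mTOR and TOP mRNA control was lower and 1 higher at that p. These were Eif4ebp1, the inhibitor of cap-dependent translation that mTOR phosphorylates, at 66.8, 73.7 and 75.7 CPM and at 48.3, 63.1 and 62.7 CPM, and Tsc1, which restrains mTOR, at 52.3 ± 3.74 and 60.8 ± 1.79 CPM (SD, n = 3 each). Neither passed adjustment. Of 20 p53 target genes, which rise when ribosome assembly fails, 7 were below 0 with a median of 0.09. Aen alone had an unadjusted p under 0.05, in the downward direction, against 5.59% of all genes tested. In every library labelled Hmga2, 1 of the 20 was lower and 3 were higher than in every vector library, against 5.88% and 5.28% of all genes.

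The 29 ribosome assembly factors and the 77 mitochondrial ribosomal protein genes had lower values more often. Of the assembly factors, 27 were below 0 with a median of -0.20, 9 had an unadjusted p under 0.05, all lower, and 12 had every library labelled Hmga2 below every vector library, against 5.59% and 5.88% of all genes tested. Bysl, needed to mature the small subunit, was at 73.9, 78.3 and 80.0 CPM, against 67.1, 54.0 and 61.3 CPM. Of the mitochondrial ribosomal protein genes all 77 were below 0 with a median of -0.17, 8 had an unadjusted p under 0.05, all lower, and 12 did not overlap, against the same 5.59% and 5.88% of all genes. Mrpl12 was at 136, 153 and 183 CPM, against 120, 127 and 129 CPM. No gene of either list passed adjustment in edgeR, and the difference between these lists and the cytoplasmic genes was not tested. Both lists are given from the main fit alone, without the alternatives tried for the main genes. Their highest median deviation was in vector 3, at 0.26 for mitochondrial ribosomal proteins and 0.15 for assembly factors. Hmga2 replicate 2 set the lists apart most: the median deviation there was 0.18 for the main genes, -0.01 for mitochondrial ribosomal proteins and -0.19 for assembly factors.

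**Figure D5:**
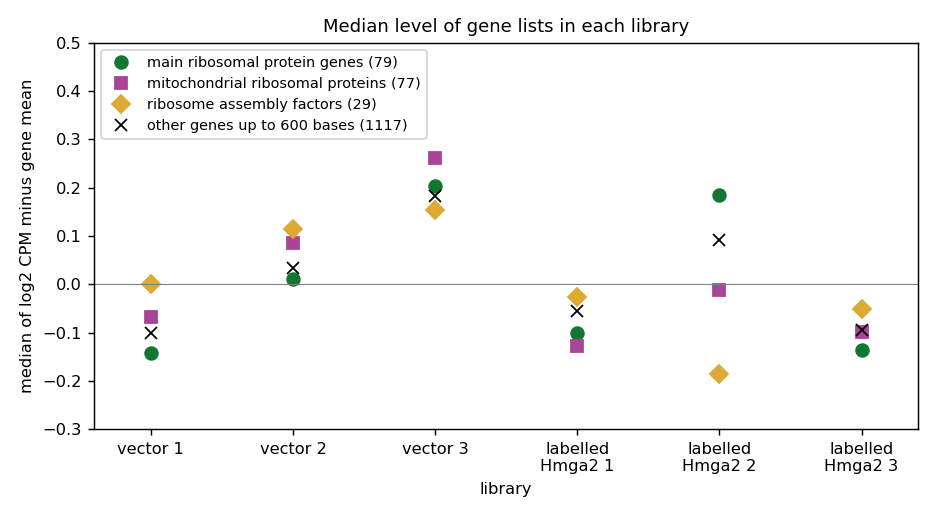
Median of log2 CPM minus the gene's mean (y axis) in each library (x axis) for main ribosomal protein genes, mitochondrial ribosomal proteins, ribosome assembly factors and other genes of up to 600 bases. All 4 sets are high in vector 3, whereas in Hmga2 2 the main genes are at 0.18 and the assembly factors at -0.19.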

How the data were processed

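RNA-seq libraries of LSK cells were compared as 3 labelled vector and 3 labelled Hmga2. The authors deposited a table of expected counts by symbol for each library, not all of them whole; the unit was judged from the values, since 67.3% to 70.1% of values above 0 were whole within 1e-06. Reads were processed with Partek 3.0 and Bowtie2 on build mm10, per the submitters' processing notes, and what counted them, against which annotation and with which use of strand, was not given in the sources used here. Counts were rounded and tested on the whole table with edgeR 4.0.16, run under R 4.3.3 (TMM, filterByExpr with the group, quasi-likelihood F test, Benjamini-Hochberg adjustment, threshold 0.05), and 16739 genes were tested. DESeq2 1.42.0 was the other tool, and CPM of single genes were TMM-scaled. Log2 CPM had a prior count of 2, and ratios a pseudocount of 0.5 on the log scale. At 24818011 to 35471806 counts per library, 3 counts are 0.0846 to 0.121 CPM. In the make-up of counts over the 79 main genes, replicates differed beyond sampling noise (a chi-square of 29.5 to 140 for each degree of freedom). The labels call them biological replicates without naming animals, so p-values measure the spread between these libraries. Shared replicate numbers were not used as pairs in the main fit. Deviations from the group mean correlated at -0.21, -0.50 and -0.26 for same-numbered libraries, and from -0.11 to 0.34 for the others. With 3 libraries a group, these values cannot show whether same-numbered libraries were handled together.

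The members and gene lists were chosen with earlier results of these data known. Genes were named by a rule: P stalk genes and Rpsa, paralogs and their parents, the 6 members in each direction with the smallest unadjusted p, the 3 highest and lowest in CPM, and up to 3 genes of each other list. Rps12, Rps6, Rpl35 and Rps27rt were named after their values or sequences were seen. Transcript lengths, windows of 50 bases and coding sequences came from GENCODE M21, in which all 89 members were found, and coding sequences were aligned with Biopython 1.88. The count test was tested on simulated data. The alternatives tried were a block on replicate number, leaving out each library, DESeq2 size factors, no count filter, DESeq2, removal of immunoglobulin genes, terms for immunoglobulin-rich libraries and for Y-linked genes, a pseudocount of 1, other totals and transcript lengths. Removing the length trend and using the principal transcript were added after seeing the data.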

Additional observations from a re-analysis of the deposited data

How the results depend on the processing

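The count of ribosomal protein genes called stayed at 0 under all 14 alternatives. The count over all genes, 0 in edgeR, was 1 with no count filter, 71 with DESeq2, 1 with the term for Y-linked genes and 0 under the others. With the replicate block, 0 genes were called, 719 had an unadjusted p under 0.05 in place of 935, and the median of the main genes was -0.03; the block changed no call. The cause of these differences was not tested.

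Leaving out each library in turn gave medians from -0.16 to 0.06 for the main genes and from -0.22 to 0.05 for the paralogs, and differences in the share of counts from -0.65 to 0.25 percentage points around -0.09. Log2 fold changes then ran from -0.080 to 0.077 for Rpl22l1, -0.12 to 0.047 for Rpl6l, -0.096 to 0.030 for Rpl7l1, -0.25 to 0.040 for Rps12l1, -0.30 to 0.070 for Rps27l, -4.96 to 0.95 for Rps4l and -0.17 to 0.033 for Rpsa. Log2 ratios to the parent ran from -0.042 to 0.059 for Rpl22l1, -0.020 to 0.0025 for Rpl6l and -0.0073 to 0.14 for Rpl7l1. The log2 fold change of Rpl36al stayed below 0, from -0.32 to -0.07. With the term for Y-linked genes the sign turned for Rpl6l (0.058), Rps12l1 (0.096), Rplp1 (0.023), Rplp2 (0.054) and Rpsa (0.095). With the length trend removed it turned for Rpl6l (0.016) and Rpl7l1 (0.023). The term for immunoglobulin-rich libraries gave a main-gene median of 0.02 with 31 of 79 below 0. The ratio of levels per kilobase, main genes over paralogs, was 6.23 by principal transcript, for which only 4 of the 7 paralogs had a length, in place of 3.97.

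With 3 libraries a group and a median standard error of 0.13, small shifts shared by all ribosomal protein genes cannot be told from differences between libraries.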
